A study of Mus musculus with 6 samples.

Results

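A set of 10 genes that restrain or report signalling through the kinase ERK was followed in mouse liver. It holds the dual-specificity phosphatases Dusp4, Dusp5 and Dusp6, the Sprouty genes Spry1, Spry2 and Spry4, the Sprouty-related genes Spred1 and Spred2, and the ETS factors Etv4 and Etv5. A probe set, which is a group of short array probes read together, was taken for a gene only where the annotation of the array platform gave it that one symbol. All 10 genes had at least 1 such probe set, 28 in all, among 18193 genes with one on the array. Each gene was represented by its probe set with the highest mean over the 6 arrays. Expression was measured in livers of 6 male C57BL/6 mice aged 6 weeks, with 1 array per mouse. In 3 mice, KO 1 to KO 3, p14 had been knocked out conditionally in the liver, and 3 control mice, WT 1 to WT 3, are labelled p14 WT. p14 is the protein of Lamtor2, a small scaffold protein on late endosomes. The Cre line, the cells in which it acts and the alleles that the control mice carried are not given in the sources used here. Levels are the deposited log2 values, so that a difference of 1 is a factor of 2. A level of 4 on at least 3 arrays was required before a gene was tested. Of the 10 genes, 7 met that requirement and 3, Dusp4, Spry1 and Etv4, did not.

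ERK is the last kinase of a cascade that growth factor receptors start through RAS, RAF and MEK. Active ERK induces genes whose products damp the same cascade: dual-specificity phosphatases remove the activating phosphates from ERK, while Sprouty and SPRED proteins act further up, at the level of receptors, RAS and RAF. ETV4 and ETV5 are transcription factors of the PEA3 group, which are also induced below receptor and ERK signalling and bind DNA at GGAA cores. Levels of these transcripts are therefore often read as a record of ERK output. p14 together with MP1, the product of Lamtor3, holds MEK and ERK on late endosomes, and the same proteins are part of the Ragulator complex.

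The start regions of the phosphatase gene Dusp6 and the SPRED gene Spred1 are shown because these were the tested members with the lowest differences between KO and WT. Each is the 250 bases before the RefSeq start in build GRCm38.p6, on the plus strand, at chr10:99262981-99263230 for Dusp6 and chr2:117120821-117121070 for Spred1. Capitals mark GGAA, the core that ETS factors bind, read on either strand, so that TTCC is marked too.
Dusp6: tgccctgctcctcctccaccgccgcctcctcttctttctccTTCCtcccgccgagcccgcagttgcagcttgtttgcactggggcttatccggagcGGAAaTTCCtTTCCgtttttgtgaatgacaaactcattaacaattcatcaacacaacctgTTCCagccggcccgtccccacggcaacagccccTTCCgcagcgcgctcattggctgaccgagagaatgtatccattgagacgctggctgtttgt
Spred1: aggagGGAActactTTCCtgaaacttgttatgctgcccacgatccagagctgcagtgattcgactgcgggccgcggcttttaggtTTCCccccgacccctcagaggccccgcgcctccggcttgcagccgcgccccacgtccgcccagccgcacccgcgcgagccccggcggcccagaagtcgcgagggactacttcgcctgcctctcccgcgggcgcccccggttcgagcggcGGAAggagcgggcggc
The Dusp6 stretch held 6 such cores and the Spred1 stretch 4. Over all 32851 promoter entries of the table the median was 3, with 1 at the 10th percentile and 5 at the 90th, and 93.4% held at least 1. The longer match AGGAAG, which contains the core, occurred once in Dusp6, where it began 210 bases before the start, and was not found in Spred1. It was present in 3 of the 8 entries that belong to 7 of the 10 genes, and in 29.5% of all entries. Neither CCGGAAG nor the AP-1 site TGANTCA was found in any of the 8, against 6.91% and 6.75% of all entries, each searched on both strands. Such matches describe the letters of these windows and do not show binding.

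Lamtor2, the targeted gene, measured 10.08, 10.19 and 10.11 on the KO arrays and 11.32, 11.29 and 11.35 on the WT arrays. Its difference passed the threshold (limma, Benjamini-Hochberg adjusted p = 0.0104), in the direction of the labels. Among 10009 genes tested, 17 were called at an adjusted p under 0.05, and the median difference of all tested genes was -0.04. The arrays had between 9942 and 10122 genes at a level of 4 or more. KO 3 lay nearer to the WT arrays than the other KO arrays did in the macrophage list given further on. WT 2 carried skeletal muscle transcripts. The 1 muscle marker tested (of 8 listed) measured 12.41 there against 3.92 to 4.15 on the other arrays. The controls for 18S rRNA measured 8.50 to 9.24 in KO and 7.77 to 8.44 in WT, without overlap. The 3 prime minus 5 prime signal of the pyruvate carboxylase controls, a measure of RNA integrity, was 3.51 to 3.58 in KO and 3.99 to 4.85 in WT, without overlap.

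Dusp6, which encodes the cytoplasmic phosphatase that acts on ERK with high selectivity, had the lowest difference of the 10 genes. Its only probe set (Entrez gene 67603) measured 9.73 on KO 1, 9.69 on KO 2 and 9.86 on KO 3. On the WT arrays it measured 11.33, 11.15 and 10.63. The groups did not overlap: the lowest WT array lay 0.770 above the highest KO array, and WT 3 was the WT array closest to the KO range. The KO arrays spanned 0.168 and the WT arrays 0.695. The KO mean was 9.76 ± 0.09 and the WT mean 11.04 ± 0.36 (SD, n = 3 each). This put the KO signal at 41.4% of WT, with a 95% interval from 30.0% to 57.0%. The difference of -1.27 (SE 0.19) did not pass the threshold over all genes (limma, adjusted p = 0.12). Of the 10009 genes tested in limma, 49 had a smaller p than Dusp6 and 86 had a lower difference. The exact two-sided permutation p was 0.1, which is the smallest that 3 arrays against 3 can give. With each array left out in turn the difference lay between -1.48 and -1.13, and the adjusted p between 0.0615 and 0.307 in limma. The array KO 3 lay with the other KO arrays here, and without it the difference was -1.32.

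Dusp4 and Dusp5 encode nuclear phosphatases that are induced by ERK signalling. The Dusp4 probe set lay near the lowest values of the array in every mouse, at 2.46, 2.42 and 2.68 in KO and 2.44, 2.49 and 2.46 in WT, and was not tested. Dusp5 had the identical value of 4.26 on all 6 arrays. It met the requirement of 4, but a probe set with 1 value throughout distinguishes no mouse from another, so the Dusp5 difference of 0 does not show that its transcript was equal in the groups. Of the phosphatases among the 10 genes, Dusp6 was thus the only one with a level that could be compared.

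**Figure D1:**
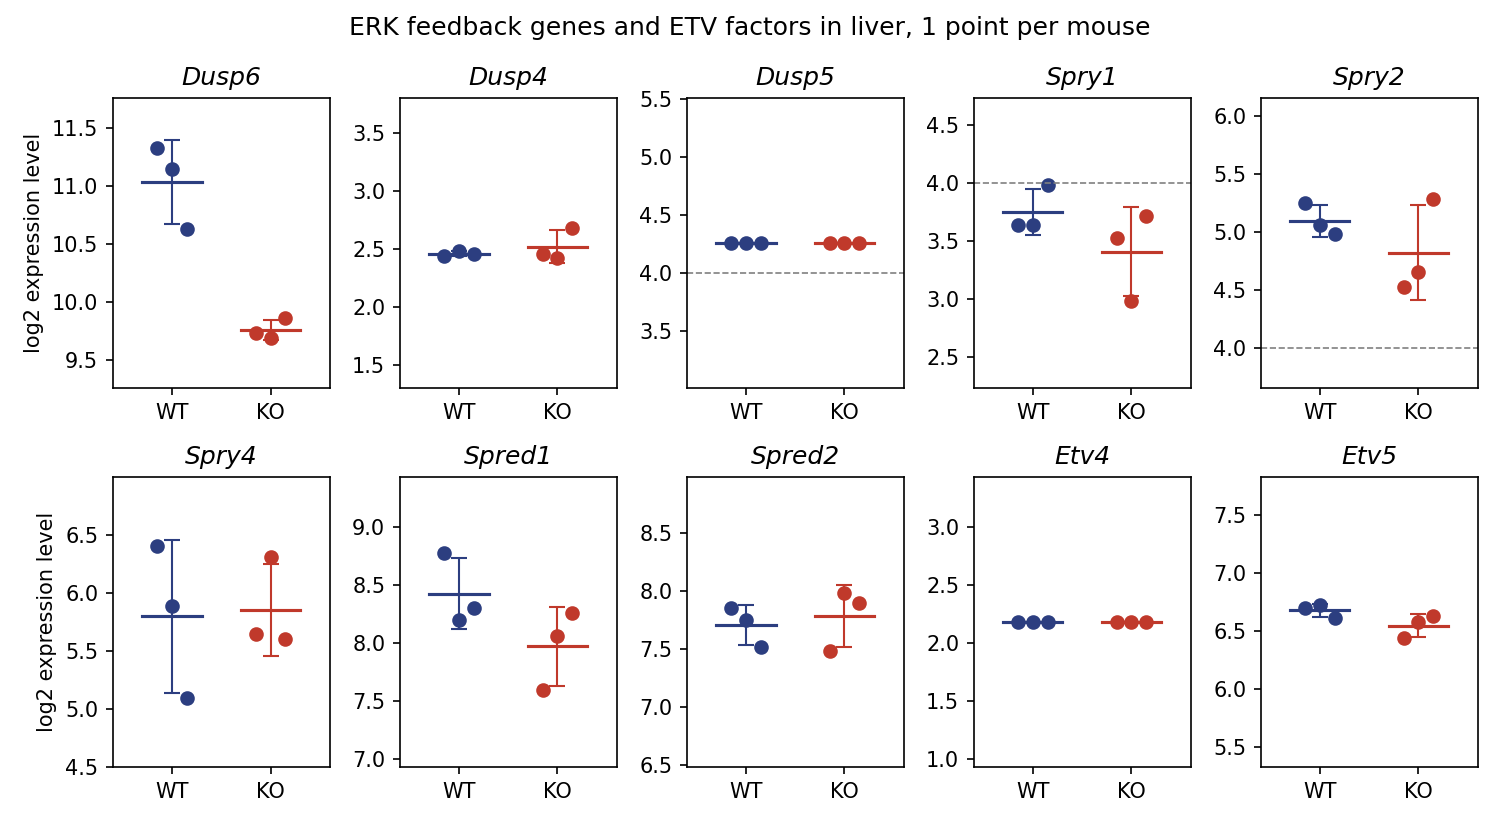
Log2 expression level of the 10 genes, 1 panel each, with 1 point per mouse for WT (blue) and KO (red), the group mean as a bar and the SD as a whisker. Every panel spans 2.5 log2 units and the dashed line marks the level of 4 where it falls inside the panel. Only the Dusp6 panel has all KO points below all WT points, at 9.69 to 9.86 against 10.63 to 11.33.

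Sprouty proteins are membrane-associated inhibitors that act between growth factor receptors and RAF. Spry1 lay below the level of 4 on every array, at 3.52, 2.98 and 3.72 in KO and 3.63, 3.64 and 3.98 in WT. These ranges overlapped, and Spry1 was not tested in the main comparison. Spry2 measured 4.52 on KO 1, 4.66 on KO 2 and 5.29 on KO 3, against 5.25, 5.06 and 4.98 on the WT arrays. KO 1 and KO 2 lay below every WT array and KO 3 above every one, so the groups overlapped. The Spry2 difference was -0.28, with a 95% interval from -0.81 to 0.25 (limma, adjusted p = 0.555). Without KO 3 it was -0.51 and without KO 1 it was -0.13, and neither passed (limma, adjusted p = 0.126 and 0.832). The other Spry2 probe set had the same value, 2.20, on all arrays.

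Spry4 varied more within the groups than between them. Its brighter probe set measured 5.65, 6.31 and 5.60 in KO and 6.40, 5.89 and 5.10 in WT, so that the highest and the lowest array were both WT. The Spry4 difference was 0.06 with a wide interval, from -0.87 to 0.99 (limma, adjusted p = 0.955), and it turned negative without KO 2 (-0.17) or without WT 3 (-0.29). A second probe set past the level of 4 gave 0.03, and the other 2 had a single value on all arrays. Differences of Spry4 within the interval from -0.87 to 0.99 are not excluded by these 6 arrays.

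Spred1 and Spred2 encode membrane proteins with a Sprouty-type domain that block the activation of RAF and bring neurofibromin to RAS. The brightest Spred1 probe set measured 7.59, 8.06 and 8.26 in KO and 8.77, 8.20 and 8.30 in WT. KO 1 was the lowest array and WT 1 the highest, and KO 3 lay above WT 2, so the groups overlapped. Spred1 had a KO mean of 7.97 ± 0.34 and a WT mean of 8.42 ± 0.31 (SD, n = 3 each). The difference of -0.45 had a 95% interval from -1.02 to 0.11 and did not pass (limma, adjusted p = 0.404). It was -0.27 without KO 1 and -0.28 without WT 1.

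Spred1 had the most probe sets of the 10 genes, 8, of which 7 reached the level of 4. Of those 7, 6 had a difference below 0, and all of them together ranged from -0.65 to 0.15. In 2 of the 7 the groups did not overlap. The brighter of these measured 7.43, 7.65 and 7.70 in KO and 8.19, 7.99 and 7.84 in WT, a difference of -0.41 (limma over all single-symbol probe sets, adjusted p = 0.275). The dimmer one measured 5.79, 6.87 and 6.66 in KO and 7.15, 6.90 and 6.89 in WT, so that KO 2 lay close to the WT arrays. The probe set with the difference of 0.15 is of a type (suffix x) whose probes can bind other transcripts, and 3 of the 6 lower ones, among them the brighter one that did not overlap, are of a type (suffix s) whose probes can be shared between transcripts. KO 1 was the lowest of all arrays in 5 of the 7 probe sets and WT 1 the highest in 6. These probe sets read the same 6 RNA samples and are not replicates of one another.

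Spred2 measured 7.49, 7.99 and 7.90 in KO and 7.85, 7.76 and 7.52 in WT. The KO arrays lay on both sides of the WT range. Its difference was 0.08, with a 95% interval from -0.32 to 0.48 (limma, adjusted p = 0.823). The next brightest Spred2 probe set gave 0.09, and the dimmest of those past the level of 4 gave -0.24, with 3 arrays tied at 6.33. With the mean of all its probe sets the Spred2 difference was -0.01, and it was -0.02 without KO 2 and -0.01 without WT 3.

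**Figure D2:**
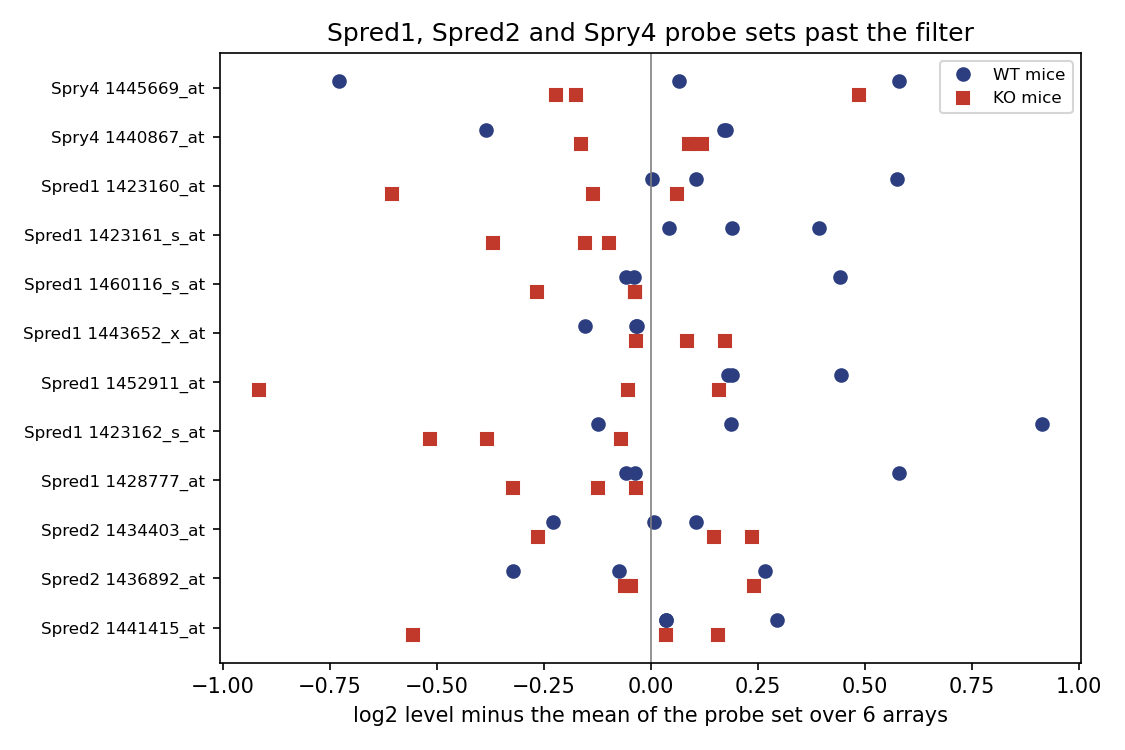
Probe sets of Spred1, Spred2 and Spry4 that reached a level of 4, each array plotted as its log2 level minus the mean of that probe set over the 6 arrays, with WT mice as blue circles and KO mice as red squares. In Spred1, 6 of the 7 probe sets have a KO mean below the WT mean, while in Spred2 and Spry4 the symbols are mixed.

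The PEA3-group factors Etv4 and Etv5 differed in whether they could be measured. Both Etv4 probe sets lay at 2.18, the lowest value of the whole table, in every mouse. Etv5 had 1 probe set past the level of 4, which measured 6.44, 6.58 and 6.63 in KO and 6.70, 6.73 and 6.62 in WT. KO 3 lay just above WT 3, and the other KO arrays lay below all WT arrays. The Etv5 difference was -0.13, with a 95% interval from -0.32 to 0.06 (limma, adjusted p = 0.454), which puts the KO signal at 91.3% of WT. It was -0.08 without KO 1, -0.07 with each array centred on its median and -0.03 with the mean of all Etv5 probe sets. That interval does not include a difference as low as that of Dusp6, and neither do the intervals of Spry2, Spry4, Spred1 and Spred2. The other 2 Etv5 probe sets stayed between 2.62 and 2.75.

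**Figure D3:**
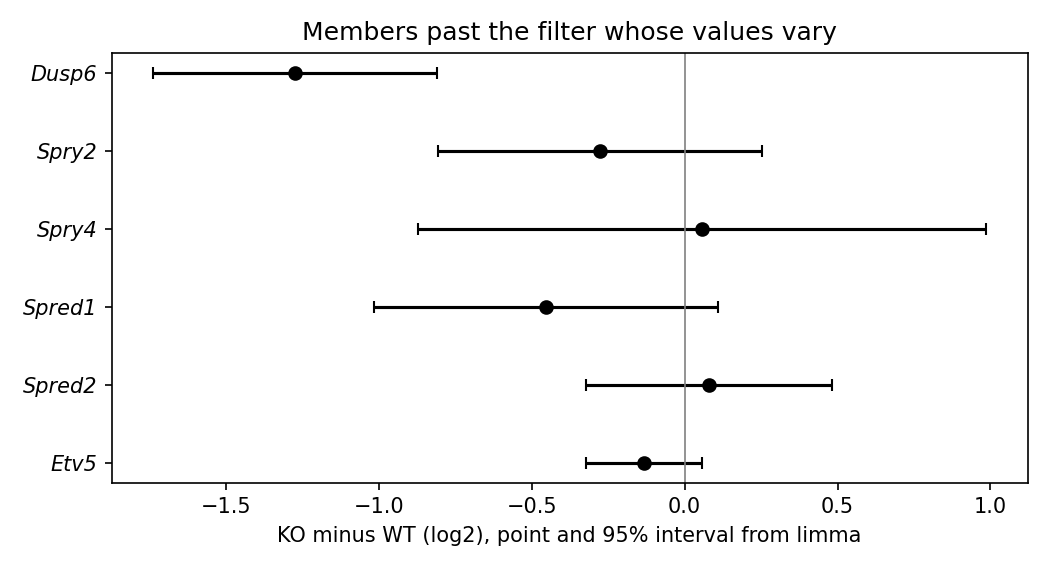
KO minus WT difference in log2 expression for the 6 tested genes whose values vary, with the 95% interval from limma; Dusp5, at one value on all arrays, is left out. The Dusp6 interval, from -1.74 to -0.81, lies below 0, and the other 5 intervals include 0.

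Over the set, 0 of the 7 tested genes were called, beside 0.17% of all tested genes (limma), and at an unadjusted p under 0.05 there was 1, Dusp6, lower in KO, where 10.1% of all tested genes were lower at that level. The groups did not overlap for 1 of the 7, again Dusp6 and lower in KO, which is 14.3% beside 14% of all tested genes. No member lay wholly higher in KO, as 6.54% of all genes did. The difference was below 0 in 4 of the 7, or 57.1%, beside 58.4% of all genes, and the median was -0.13 beside -0.04. A difference of 2-fold or more towards lower KO values was seen for 1 of the 7, beside 1.56% of all genes. The shares of members that were lower or did not overlap were thus near those of all tested genes, with Dusp5 counted among the 7. Among the 6 members whose values vary, 4 were lower and 1 did not overlap. The difference between Dusp6 and the other members was not tested.

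The other genes of the pathway were taken from 4 lists with 81 entries, of which 52 were tested. None of the 52 was called in limma. At an unadjusted p under 0.05 there were 5, all lower in KO, where 10.1% of all tested genes were lower at that level. The difference was below 0 in 38 of the 52, beside 58.4% of all tested genes. The groups did not overlap for 9, all lower in KO, beside the 14% of all genes given above. Among receptors, 14 of 16 were tested and 2 were lower at an unadjusted p under 0.05. They were Flt1, a VEGF receptor, at -0.30 (limma, adjusted p = 0.305), and Fgfr3, an FGF receptor, at -0.32 (limma, adjusted p = 0.327). The median of the receptors was -0.05. Egfr, the EGF receptor, was chosen after its values were seen. It had the highest difference of that list, 1.80, with KO levels of 12.83, 11.21 and 10.05 and WT levels of 7.92, 10.05 and 10.70 (limma, adjusted p = 0.425).

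The cascade itself, from adaptors to MEK and the ERK scaffolds, had the narrowest range of differences of the 4 lists. Of its 22 entries 14 were tested, their differences ran from -0.17 to 0.13, and 0 had an unadjusted p under 0.05. Those with the smallest p were the adaptor Grb2 at -0.09 and the RAS exchange factor Sos1 at -0.14 (limma, adjusted p = 0.475 and 0.502). Lamtor3, the partner of p14 on late endosomes, measured 10.01, 10.06 and 10.18 in KO and 10.06, 10.12 and 10.20 in WT, a difference of -0.04.

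Among 21 other inhibitors 14 were tested, and 12 of them had a difference below 0, beside 58.4% of all tested genes. The median was -0.15. Pea15a, a protein that holds ERK in the cytoplasm, was the 1 gene at an unadjusted p under 0.05, with 7.78, 7.99 and 8.11 in KO and 8.32, 8.58 and 8.57 in WT. Its difference was -0.53 (limma, adjusted p = 0.212). The phosphatase Dusp3 had the next smallest p, at -0.22 (limma, adjusted p = 0.345). Dusp7, a close relative of Dusp6 with the same preference for ERK, differed by -0.13 (limma, adjusted p = 0.617), and Dusp9, the other cytoplasmic relative, was below the level of 4.

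Of 22 other genes known to be induced through ERK, 10 were tested. Of these, 7 had a difference below 0, beside 58.4% of all tested genes, and the median was -0.26. The cyclin Ccnd1 measured 10.82, 11.61 and 11.58 in KO and 12.40, 12.11 and 12.04 in WT, a difference of -0.85 (limma, adjusted p = 0.265). Jun, a component of AP-1, differed by -0.95 (limma, adjusted p = 0.328). For both, every KO array lay below every WT array. Egr1, an immediate-early gene, did not separate the groups, with 5.05, 9.53 and 8.34 in KO and 7.71, 8.67 and 7.71 in WT. The genes Fos, Fosl1, Myc and Egr2 of this list were below the level of 4.

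**Figure D4:**
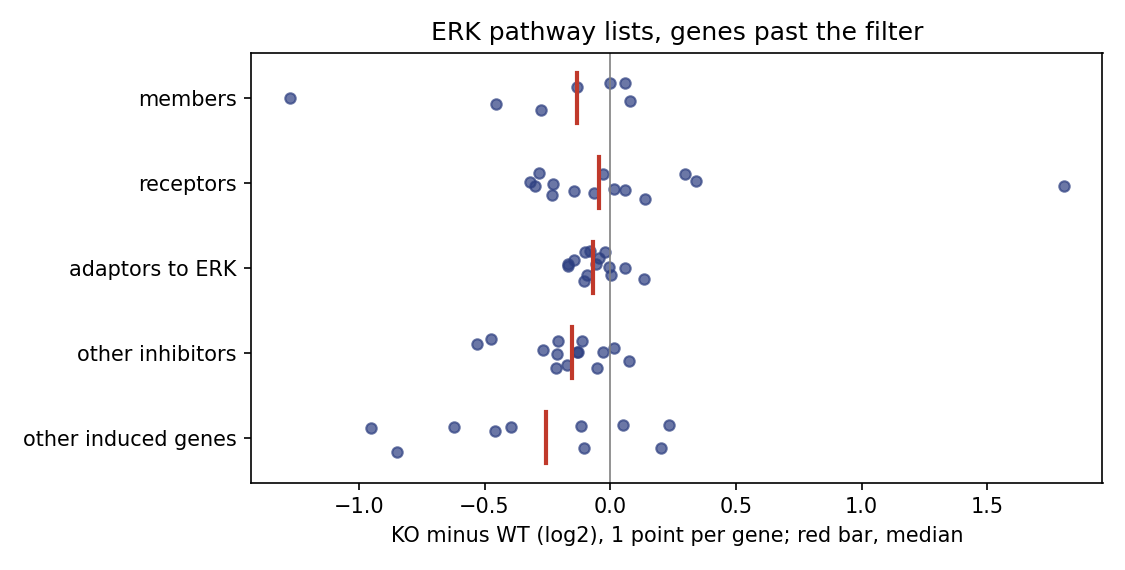
KO minus WT difference in log2 expression, 1 point per tested gene, for the members and the 4 pathway lists, with the median of each list as a red bar. The medians lie between -0.26 and -0.05, Dusp6 is the lowest point at -1.27 and the receptor Egfr the highest at 1.80.

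The livers were bulk tissue, so fewer cells of a type cannot be told apart from less RNA per cell. Hepatocyte markers other than Ass1 were bright, which fits the label of liver. The hepatocyte list means, with Ass1 included, were 14.50 to 14.70 in KO and 14.44 to 14.61 in WT over 10 genes. Ass1 measured 7.31, 9.27 and 8.83 in KO and 8.21, 7.88 and 6.82 in WT. Its KO arrays fell in the same order as those of the list mean. Kupffer cell and macrophage markers differed between the same groups as Dusp6. All 12 had a difference below 0, beside 58.4% of all tested genes, with a median of -0.89. Their summed linear signal ran from 10440 to 20152 in KO and from 23693 to 25872 in WT. The macrophage list mean was 8.61 on KO 1, 8.96 on KO 2 and 9.87 on KO 3, against 10.16 to 10.30 in WT. On the same KO arrays Dusp6 measured 9.73, 9.69 and 9.86 and Spred1 7.59, 8.06 and 8.26. KO 3 was the highest KO array in all 3 cases. It was also the highest for Spry2, Etv5 and the endothelial and stellate list means, but not for Spry4, Spred2 or the hepatocyte mean. How many of all tested genes had KO 3 as the highest KO array was not counted. No likeness is therefore read from this order. Dusp6 spanned 0.168 over the KO arrays, and whether its values follow the macrophage mean was not tested. Endothelial markers had a difference below 0 in 10 of 12, beside the same 58.4%. The 1 called was Lyve1, at -1.32 (limma, adjusted p = 0.0353). The summed linear signal of the endothelial markers was 8259 to 10681 in KO and 10015 to 11491 in WT. Their list means were 8.47 to 8.82 in KO and 9.01 to 9.16 in WT.

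Stellate cell markers had a difference below 0 in 8 of 9 tested, beside 58.4% of all tested genes. Their list means overlapped, at 8.70 to 9.17 in KO and 9.005 to 9.65 in WT. Their summed linear signal was 10261 to 14156 in KO and 13390 to 18885 in WT. Of 7 cholangiocyte markers 2 were tested, and the defining Krt19, Krt7 and Sox9 were below the level of 4. The tested ones were Prom1, with 6.52, 6.15 and 8.12 in KO and 9.90, 9.34 and 9.12 in WT and no overlap (a difference of -2.52, limma adjusted p = 0.202), and Epcam, with a difference of 0.08. Of 9 lymphocyte markers on the array, 6 were below the level of 4. Of 12 cell division genes 7 were tested, with list means of 3.68, 3.81 and 5.07 in KO and 6.93 to 7.24 in WT. In 4 of the 7, at least 2 KO arrays lay below the level of 4, so that these genes met the requirement through the WT arrays. The distance between the list means of the groups is in part set by that requirement, so nothing is read from it. No count or median over the list is drawn either. The part of these cell types, of cell division, of the 18S rRNA difference and of the pyruvate carboxylase measure in the values of Dusp6 and Spred1 was not tested.

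**Figure D5:**
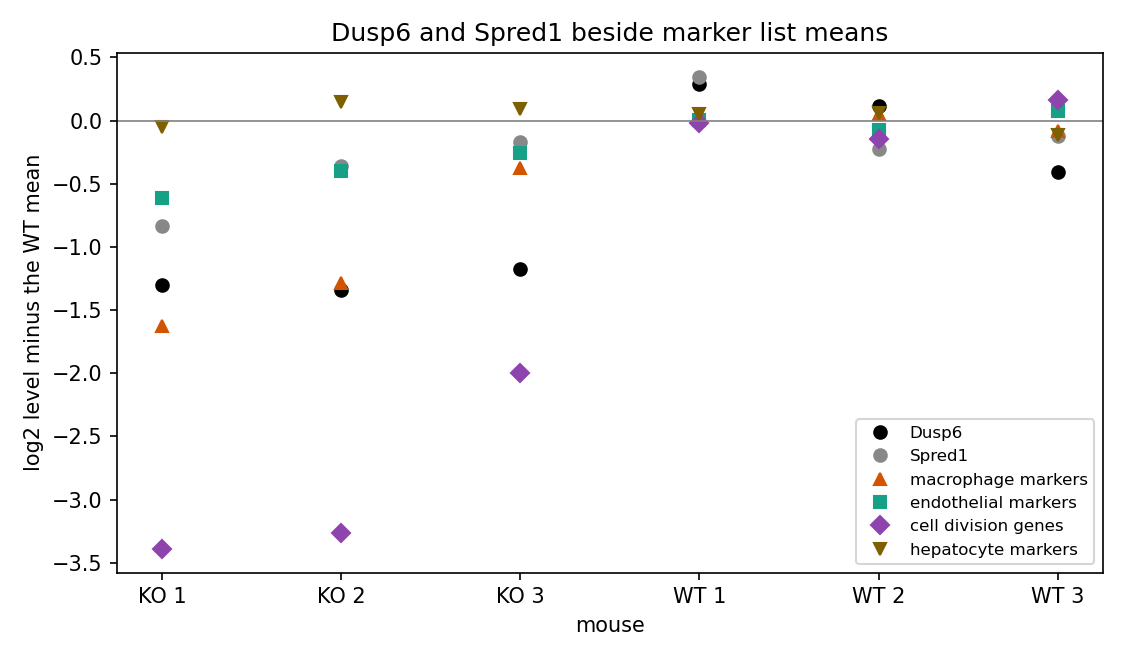
Log2 level minus the WT mean for Dusp6 and Spred1 and for the list means of macrophage, endothelial and hepatocyte markers and cell division genes, 1 column per mouse. On KO 1, KO 2 and KO 3 the macrophage mean is 8.61, 8.96 and 9.87 and Spred1 is 7.59, 8.06 and 8.26. Dusp6 is 9.73, 9.69 and 9.86 on the same arrays. Of the KO arrays, KO 3 is the highest for each of these and for the endothelial mean. For the hepatocyte mean it is KO 2, which is also the highest KO array of the dimmest gene of that list, Ass1. Of the cell division genes, 4 of 7 met the level of 4 through the WT arrays.

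The genes whose values most resembled those of Dusp6 were found by the mean absolute difference, over the 6 arrays, between log2 values centred on the mean of each gene. The nearest of the 10009 tested genes was Sybu, which encodes a linker of cargo to kinesin, at a distance of 0.109. Plek, which encodes pleckstrin of platelets and leukocytes, followed at 0.149, and so did Trim12a, of the TRIM family, at 0.149. Camsap3, which binds microtubule minus ends, lay at 0.163 and Clec4a3, a C-type lectin of myeloid cells, at 0.182. Their differences between KO and WT were -1.12 for Sybu, -0.998 for Plek, -0.98 for Trim12a, -1.06 for Camsap3 and -1.01 for Clec4a3. Of these 5, Camsap3 was called (limma, adjusted p = 0.0411). Plek measured 3.90 on KO 1 and 3.81 on KO 2, below the level of 4, so that it met the requirement through the WT arrays. The Plek difference is in part set by that requirement, and nothing is read from it. Sybu was also dim in KO, at 4.49 to 4.56. Among the members, Spred1 was the nearest to Dusp6, at 0.410, with 413 genes nearer, followed by Spry2 at 0.499. The distance depends on the size of the difference between the groups, so it describes likeness over these 6 arrays only.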

How the data were processed

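Liver RNA of 3 p14 KO and 3 WT mice was measured on Affymetrix mouse arrays. The authors deposited log2 expression levels per probe set, for which the submitters' processing notes name R 2.9.1 and GCRMA 2.16.0. No detection calls were used. That the scale is log2 was judged from the range of values, 2.18 to 16.33. As many as 28.9% of values sat at the minimum, so little can be read from dim genes. Subtracting background can also widen the difference of a gene that is dim in 1 group only. The number of arrays limits the precision.

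From the 45101 probe sets, manufacturer controls were left out and each gene took its brightest single-symbol probe set. Genes at log2 4 or more on at least 3 of 6 arrays, whichever group, were tested in limma 3.58.1 under R 4.3.3 (lmFit, eBayes, no covariates, two-sided, Benjamini-Hochberg adjustment over all 10009 genes, threshold 0.05). Differences are KO minus WT. Single probe sets were also compared by exact permutation. The fit was tested on simulated data. Promoter stretches came from a RefSeq table of build GRCm38.p6, which held 7 of the 10 genes. Figures were drawn with matplotlib 3.10.9.

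The members and lists were chosen with earlier results of these data known. The text names all members, Lamtor2, the called genes of each pathway list or otherwise its 2 genes with the smallest p, and the 5 genes nearest to Dusp6. Further genes were named after their values were seen. These are Egfr, Egr1, Lamtor3, Dusp7, Lyve1, Prom1, Epcam, Ass1 and genes below the filter. Entries without a single-symbol probe set were not analysed here. The labels call the mice biological replicates. Alternatives covered the filter, normalisation, background, probe sets, variance model, array weights, the replicate block and left-out arrays.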

Additional observations from a re-analysis of the deposited data

How the results depend on the processing

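No member was called under any of the 18 alternatives (limma), and 0 genes of the 4 pathway lists were. The Dusp6 difference stayed between -1.48 and -1.13 over these alternatives, with an adjusted p from 0.0615 to 0.374 in limma, and Spred1, Spry2 and Etv5 stayed below 0. Spry4 and Spred2 changed sign: Spry4 was -0.17 without KO 2 and -0.29 without WT 3, against up to 0.36 without WT 1, and Spred2 was -0.014 with the mean of all its probe sets, -0.018 without KO 2 and -0.015 without WT 3, against up to 0.23 without KO 1. Centring each array on its median moved 3 small differences by over 1.5 times, to -0.07 for Etv5, 0.12 for Spry4 and 0.15 for Spred2. The count of members with a difference below 0 was 4 to 6 with 1 array left out. The count of genes called over the array moved from 17 to 3 with no filter and to 3 when KO 3 and WT 2 were left out together. With 1 array left out it ran from 1 to 140, with 140 when KO 3 was omitted, 6 when KO 1 was, 5 when WT 3 was and 1 each for KO 2, WT 1 and WT 2. The cause was not tested. Leaving out the genes tied on all 6 arrays, chosen after seeing the data, gave 18 calls.

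The labels number the mice of both groups 1 to 3. Deviations of same-numbered arrays from their group means correlated at -0.09, -0.08 and -0.14 across genes, and 0 of 3 KO arrays correlated best with its own number. With the number as a replicate block, 0 genes were called, with 0.303 as the adjusted p of Dusp6 in limma.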
